A study of Mus musculus with 13 samples.

Results

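Cells of the mouse claustrum that carried transcript of a viral tracer were compared with cells of the same animal that did not. The cells were chosen by a measured value, the count of Gfp in each cell: at least 1 count made a cell Gfp-positive and 0 counts made it Gfp-negative. Of 238 excitatory neurons kept, 70 were Gfp-positive and 168 were Gfp-negative, out of 1011 kept cells in the whole series of 13 plates and 4 mice.

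The animal was 1 mature male wild-type C57BL/6 mouse whose anterior cingulate cortex received rAAV2-retro-CAG-GFP, an adeno-associated virus that is taken up by axon endings and carried back to the cell body, with GFP under the broadly active CAG promoter. GFP light guided the dissection, while single cells were picked by hand without regard to it. GEO's labels list these 3 plates as claustrum of a wild-type mouse with no projection data, and the virus is known from the study's Methods. Both classes of cells therefore came from the same injected brain, and uninjected cells were no part of the comparison. The 3 other mature male C57BL/6 mice received green retrobeads in the lateral entorhinal cortex (LEC) and red retrobeads in the retrosplenial cortex (RSC). From them, 247 RSC-labeled and 286 LEC-labeled cells served as an independent comparison.

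The claustrum is a thin sheet of neurons beneath the insular cortex with connections to much of the neocortex. Its excitatory neurons fall into core neurons, which express the synaptic vesicle gene Synpr, and shell neurons, which express genes such as Nnat and Slc30a3. Deep cortical layers lie alongside, and their layer 6 neurons are known for Ctgf, Foxp2 and Cplx3. A retrograde virus marks neurons with axons at the injected site, provided that they take it up and express its cargo, so a cell without the transcript can still project there.

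The 3 plates are technical replicates of 1 animal, and every p-value below measures only the spread between plates. Plate 1 held 43 Gfp-positive cells of 79 (54.4%), plate 2 held 22 of 76 (28.9%) and plate 3 held 5 of 83 (6.02%). Plate 3 stood apart in depth as well, with a median total of 44913 counts per cell beside 19195 and 25326.5 on plates 1 and 2. It had the fewest Gfp-positive cells although it was sequenced the most deeply. Anterior and posterior sections of this brain had been collected separately, and which plate held which was not used here. No cell barcode occurred on more than 1 of these plates, while 231 barcodes of the fixed barcode set recurred on plates of the projection mice.

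Gfp itself is given only as a description, since it defined the classes. The kept cells held 302 Gfp counts, and a positive cell had 1 to 25 of them with a median of 3. At the limit itself, 19 cells had exactly 1 count, just inside it, and 168 had 0, just outside. Within plates the median total count of Gfp-positive and Gfp-negative cells was 19195 and 18214.5 on plate 1, 23918 and 25418 on plate 2, and 52492 and 44886 on plate 3. The mean log2 ratio of these medians was 0.07 ± 0.16 (SD, n = 3 plates), so depth within a plate differed between the classes by less than its spread between plates. When Gfp and all other counts of each cell were thinned to 10000, 58 of 235 cells (24.7%) still had Gfp.

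The labelled tissue was checked against its markers. All 10 excitatory markers were measured in each of the 6 sums of cells (3 plates by Gfp class), with summed levels of 7175 to 7785 CPM (a gene's count scaled to the total count of its sum). Of 13 inhibitory markers only 4 were in the count data, and Gad1, Gad2, Slc32a1, Sst, Pvalb and Vip were not among them, so this check is limited. The 4 markers measured summed to 53.6, 57.2 and 91.6 CPM in Gfp-negative and to 42.1, 1.94 and 0 CPM in Gfp-positive cells of plates 1, 2 and 3. Nearly all of this was Npy, a neuropeptide gene, and Lhx6 was at 0 in every sum. The 12 of 22 glial and vascular markers that were measured summed to 70.6 to 115 CPM in Gfp-positive and to 92.5 to 132 CPM in Gfp-negative cells, with Pdgfra, Cx3cr1 and Flt1 at 0. Both lists were thus lower in the Gfp-positive sum of each plate, and their part in the results below was not tested.

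Gfp-positive cells were more often cells of the claustrum core. Synpr separated the cells almost completely, since 109 cells had no count of it and only 6 lay between 100 and 400 CPM. At the limit of 200 CPM, the nearest cells lay at 199.9 CPM below and 235 CPM above. Of Gfp-positive cells, 49 of 70 (70.0%, exact Clopper-Pearson 95% interval 57.9 to 80.4%) were at or over it, and of Gfp-negative cells 64 of 168 (38.1%, 30.7 to 45.9%). These intervals cover counting error among cells of 1 animal only.

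The order was the same on each plate. On plate 1, 71.8% of 39 Synpr-high cells and 37.5% of 40 other cells were Gfp-positive. On plate 2, these shares were 40.0% of 45 cells and 12.9% of 31 cells. On plate 3 they were 10.3% of 29 cells and 3.70% of 54 cells, with intervals of 2.19 to 27.4% and 0.452 to 12.7% that overlap. The difference was 34.3, 27.1 and 6.64 percentage points on plates 1, 2 and 3, or 22.7 ± 14.3 points (SD, n = 3 plates). An exact permutation test over 3 plates cannot reach p under 0.05, and none was run. Plates differed as much as Synpr classes did, or more. Synpr-high cells ran from 71.8% on plate 1 to 10.3% on plate 3, and Synpr-low cells from 37.5 to 3.70%. The Synpr-low cells of plate 1 and the Synpr-high cells of plate 2 were Gfp-positive at 37.5 and 40.0%.

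Over the 3 plates together, the share of Synpr-high cells was also higher in cells with more Gfp. It was 38.1% of 168 cells with 0 counts, 52.6% of 19 cells with 1 count, 75.0% of 28 cells with 2 to 4 counts and 78.3% of 23 cells with 5 or more. The interval of the 1-count cells, 28.9 to 75.6%, holds the values of its neighbours on both sides. Within plate 1 the shares were 30.6, 38.5, 62.5 and 92.9% in the same order. Within plate 2 they were 27 of 54, 5 of 6, 9 of 9 and 4 of 7 cells, so the order did not hold there among positive cells, and plate 3 had no cell with 1 count.

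**Figure D1:**
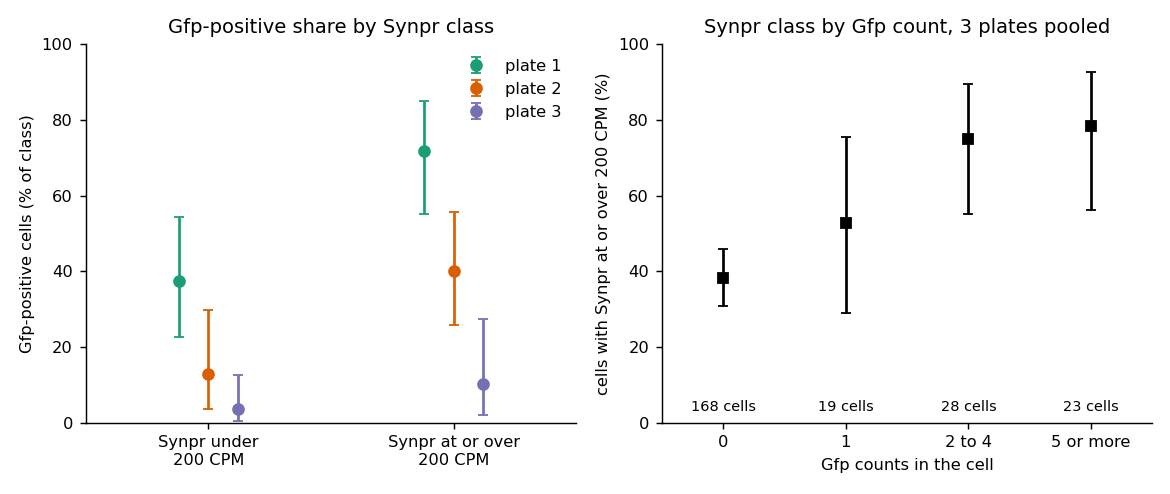
Left, the percent of cells that were Gfp-positive among cells with Synpr under and at or over 200 CPM, 1 point per plate with its exact 95% interval. Right, the percent of cells at or over 200 CPM of Synpr by Gfp count, over the 3 plates, with the same kind of interval. The Synpr-high point lies above the Synpr-low point on every plate, at 71.8 and 37.5% on plate 1, and the share on the right goes from 38.1% at 0 counts to 78.3% at 5 or more.

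Summed per plate, the Gfp-positive cells had less RNA of a few genes, among them the layer 6 marker Ctgf. Of 7929 genes tested, 5 fell in Gfp-positive cells (0.0631% of genes tested) and 0 rose (0%) (edgeR, quasi-likelihood, p adjusted by Benjamini-Hochberg), while 401 had an unadjusted p under 0.05. The 5 were Pcp4, Cplx3, Nrip3, Ctgf and Mpped1, and each was lower in the Gfp-positive sum on all 3 plates. In bulk sums such as these, fewer cells of a type and less RNA per cell cannot be told apart, and the cell counts are given beside the levels for that reason.

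Pcp4 encodes a small calmodulin-binding protein that is abundant in deep cortical layers. Its normalised level in Gfp-negative and Gfp-positive cells was 317 and 100.2 CPM on plate 1, 776 and 34.9 CPM on plate 2, and 1009 and 86.6 CPM on plate 3. The groups did not overlap, and the log2 change was -3.24 ± 0.38 (SE, 3 sums each, adjusted p = 0.0013, edgeR). Pcp4 had a count in 11 of 43, 4 of 22 and 3 of 5 Gfp-positive cells and in 22 of 36, 24 of 54 and 50 of 78 Gfp-negative cells of plates 1, 2 and 3. Its adjusted p ran from 7.62e-51 to 0.122 over 11 alternatives, and it was called in 10 of 12 settings.

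Cplx3, a complexin that regulates vesicle release and marks neurons at the base of layer 6, was near 0 in Gfp-positive cells. It stood at 47.8 and 2.28 CPM on plate 1, 331 and 1.94 CPM on plate 2, and 321 and 7.53 CPM on plate 3, in Gfp-negative and Gfp-positive cells. This was a log2 change of -6.24 ± 0.78 (SE, adjusted p = 0.00158, edgeR, with 0.197 the highest over alternatives). The share of cells with a count was lower in Gfp-positive cells on plate 2 only, and on plate 3 the shares were close. On plate 1, Cplx3 was in 2 of 43 Gfp-positive cells and in 1 of 36 Gfp-negative cells, and that 1 cell held all 33 counts behind the level of 47.8 CPM. On plates 2 and 3 it was in 1 of 22 and 1 of 5 Gfp-positive cells and in 12 of 54 and 15 of 78 Gfp-negative cells.

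Ctgf, a secreted matricellular factor and the marker of the deepest cortical neurons, had 0 counts in all 70 Gfp-positive cells, which allows a share of cells with a count of up to 4.29% by a floor of 3 counts and 5.13% by the exact interval. In Gfp-negative cells it had 312 counts in 28 of 168 cells, at 18.8, 50.5 and 62.9 CPM on plates 1, 2 and 3. Its adjusted p was 0.0133 (edgeR, up to 0.457 over alternatives). Set against a floor of 3 counts over all Gfp-positive cells, with counts taken as independent, it was 30.2-fold lower there. This value was 15.5, 21.3 and 18.5 without plates 1, 2 and 3. It was 5.58, 8.71 and 5.59 within plates 1, 2 and 3, since the classes were spread unequally over the plates. The 312 counts lay in 28 cells and are not independent, so these values are not lower limits. By cells, Ctgf was in 16.7% of Gfp-negative cells (exact interval 11.4 to 23.2%), above the 5.13% that 0 of 70 allows. Within each plate the exact intervals of the classes overlapped. Thinned to 10000 counts per cell, Ctgf was in 0 of 69 Gfp-positive and 21 of 166 Gfp-negative cells.

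Nrip3, a nuclear receptor interacting protein, was at 94.2, 158 and 122 CPM in Gfp-negative cells of plates 1, 2 and 3 and at 27.3, 21.4 and 22.6 CPM in Gfp-positive cells. Its log2 change was -2.36 ± 0.33 (SE, adjusted p = 0.00454, edgeR, up to 0.545 over alternatives). Mpped1, a metallophosphoesterase gene on the shell marker list, was at 183, 178 and 178 CPM in negative cells and 70.6, 58.2 and 79.1 CPM in positive cells. Its log2 change was -1.39 ± 0.24 (SE, adjusted p = 0.0371, edgeR, up to 1 over alternatives). For both genes the plates of 1 class lay close together and far from those of the other.

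**Figure D2:**
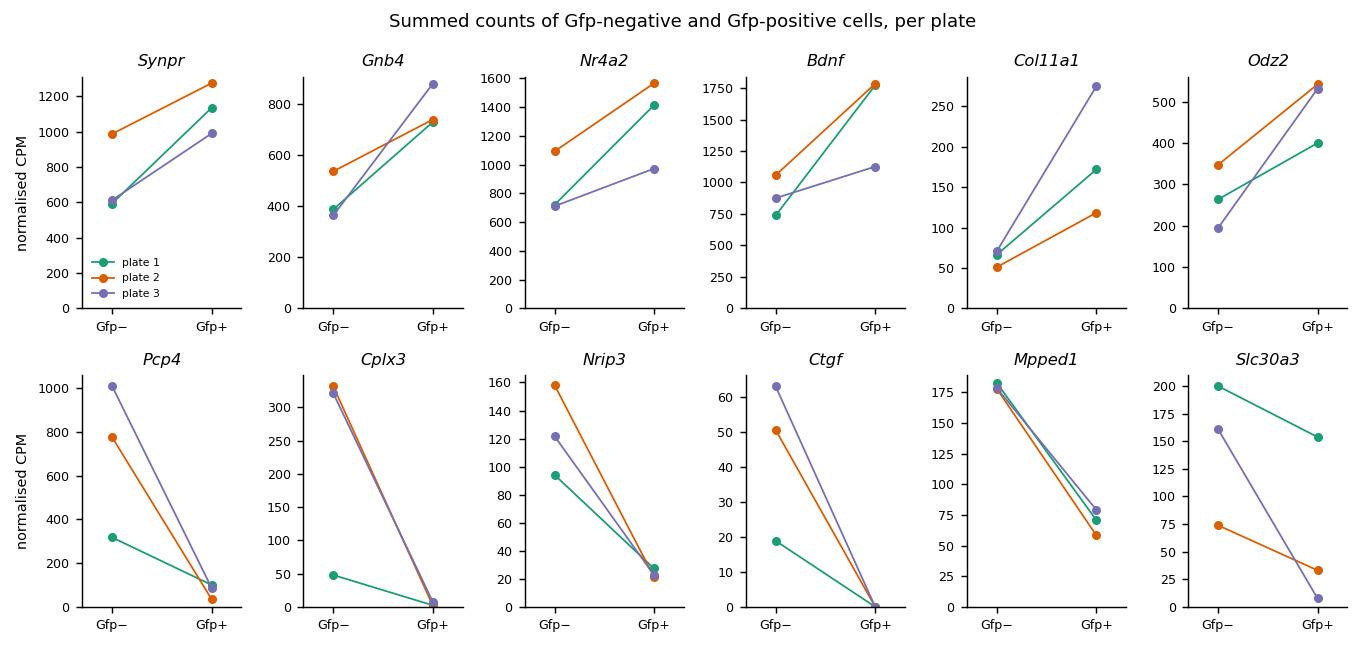
Normalised CPM (vertical axes, linear, from 0) of 12 genes in the summed Gfp-negative and Gfp-positive cells, with 1 line per plate. Synpr, Gnb4, Nr4a2, Bdnf, Col11a1 and Odz2 were higher and Pcp4, Cplx3, Nrip3, Ctgf, Mpped1 and Slc30a3 lower in the Gfp-positive sum of every plate, with Ctgf at 0 in the Gfp-positive cells.

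The plates pair the sums, since each gives 1 Gfp-positive and 1 Gfp-negative sum of the same library. With the plate as a block, 14 genes were called in place of 5, the same 5 among them: 8 lower (0.101% of genes tested) and 6 higher (0.0757%) in Gfp-positive cells. The 6 higher genes were Gnb4, Bdnf, Col11a1, Nr4a2, Synpr and Odz2. The 3 further lower genes were Rprm, Nptx1 and Serpini1. Leaving out plate 2 or plate 3 ended all 5 calls of the fit without the block, and leaving out plate 1 kept 2 of them, Pcp4 and Cplx3.

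Among the genes that rose with the block were 3 of the 9 core markers. Synpr, the vesicle protein synaptoporin, was at 594 and 1136 CPM on plate 1, 988 and 1275 CPM on plate 2, and 613 and 991 CPM on plate 3, in Gfp-negative and Gfp-positive cells (log2 change 0.66 ± 0.12, SE, blocked adjusted p = 0.023, edgeR, range over alternatives 0.023 to 0.996). Gnb4, a G protein beta subunit, went from 387 to 728, from 535 to 738 and from 363 to 878 CPM (0.88 ± 0.14, blocked adjusted p = 0.016, range 0.000849 to 0.72). Nr4a2, an orphan nuclear receptor that is strong in claustrum and also on the immediate early list, went from 720 to 1412, from 1091 to 1565 and from 711 to 972 CPM (0.65 ± 0.11, blocked adjusted p = 0.0217, range 0.0128 to 1). The classes overlapped across plates in Nr4a2, nearly touched in Synpr and did not overlap in Gnb4, and all 3 genes were higher in the Gfp-positive sum within every plate.

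The core, shell and layer 6 lists were chosen with earlier results of these data known. Synpr, Lxn, Gnb4 and Ctgf were known markers, while the study picked Nnat, Slc30a3, Spon1 and Gfra1 from cells of this series. The lists are therefore no independent evidence of a direction. All 9 core markers had a higher fitted level in Gfp-positive cells, with a median log2 change of 0.63 beside -0.0026 over all 7929 genes, of which 49.7% were higher. Without the block 0 of the 9 were called. Lxn, a carboxypeptidase inhibitor, was at 0.54, the neurotrophic factor receptor Gfra1 at 0.94, the G protein regulator Rgs12 at 0.58 and the vesicular glutamate transporter Slc17a6 at 0.65 on the log2 scale. The copines Cpne4 and Cpne9, calcium-dependent membrane-binding proteins, were at 0.24 and 0.49. Per plate, 9, 9 and 8 of the 9 were higher on plates 1, 2 and 3, the exception being Slc17a6 on plate 3.

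The 8 shell markers all had a lower fitted level, with a median log2 change of -0.55, and Mpped1 was the 1 called. Slc30a3, the zinc transporter of synaptic vesicles, was at 199.9 and 154 CPM on plate 1, 73.8 and 33.0 CPM on plate 2, and 161 and 7.53 CPM on plate 3 (log2 change -0.93 ± 0.53, SE). Nnat, a small membrane protein named neuronatin, was at 332 and 183, 171 and 136, and 137 and 49.0 CPM in the same order (-0.67 ± 0.36). Spon1, an extracellular matrix protein, was at -0.78 ± 0.38, the synapsin Syn2 at -0.30 ± 0.18 and the cell adhesion gene Ntm at -0.44 ± 0.33. Col6a1 and Ldb2 lay at -0.08 ± 0.36 and -0.03 ± 0.34 and changed sign under alternatives. Of the 8, 6, 6 and 7 were lower on plates 1, 2 and 3, and the classes overlapped across plates in Slc30a3 and Nnat.

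Of the 10 layer 6 markers, 3 passed the filter on low counts, and all 3 were lower. Ctgf was called, and Rprm, a regulator of the cell cycle, was called with the block only (blocked adjusted p = 0.0488, edgeR, 4.74e-05 to 0.911 over alternatives). Rprm had 0 counts in Gfp-positive and 138 counts in 8 Gfp-negative cells. By the same floor of counts it was 13.4-fold lower, and 5.50, 8.41 and 16.9-fold without plates 1, 2 and 3. These bounds take counts as independent. By cells, Rprm was in 8 of 168 Gfp-negative cells (4.76%), and 0 of 70 allows up to 5.13% by the exact interval. A lower share of cells with Rprm was thus not shown. Tle4, a transcriptional corepressor, was at -1.53 ± 0.63 (adjusted p = 0.864, edgeR). Among the 7 below the filter, the transcription factor Foxp2 and the actin-binding gene Lsp1 had 0 counts in Gfp-positive cells and 60 and 119 counts in Gfp-negative cells. Sla, Fezf2, Pitpnc1, Cyr61 and Syt6 had a count in 1 to 3 Gfp-positive cells and in 4 to 22 Gfp-negative cells.

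The other genes called with the block belong to none of these 3 lists. Bdnf, the neurotrophin, went from 739 to 1772 CPM on plate 1, from 1058 to 1784 on plate 2 and from 876 to 1126 on plate 3 (0.80 ± 0.13, SE, blocked adjusted p = 0.016, edgeR, range 6.94e-05 to 0.996). It had a count in 67 of 70 Gfp-positive and 121 of 168 Gfp-negative cells. Col11a1, a fibrillar collagen chain, went from 66.6 to 172, from 51.2 to 118 and from 71.0 to 275 CPM (1.53 ± 0.25, blocked adjusted p = 0.0168, range 6.94e-05 to 0.808). Odz2, a teneurin adhesion protein, was at 0.89 ± 0.17, the synaptic pentraxin Nptx1 at -1.10 ± 0.21 and the protease inhibitor Serpini1 at -1.06 ± 0.21 (blocked adjusted p = 0.047, 0.0488 and 0.0494). These blocked values and names were chosen after their values were seen.

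The study's in situ probes included further genes, which were not called. Cdh9, a classical cadherin, was at 0.43 ± 0.44 and Slc17a7, the glutamate transporter required in every kept cell, at 0.03 ± 0.22 on the log2 scale.

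Lists of genes tied to infection, stress and viral entry had 0 calls with and without the block (edgeR). Over all genes tested, 0.0631% were called lower and 0% higher without the block, and 0.101 and 0.0757% with it. At such shares, 0 calls in lists of this size, here and below, are no result about their genes. Of the 26 interferon and antiviral genes 1 was tested, at -0.32. The 5 antigen presentation genes tested had a median log2 change of -0.06, the 13 DNA damage and p53 genes 0.01, the 23 heat shock and unfolded protein genes -0.02 and the 21 entry factors of adeno-associated virus 0.09. Of the entry factors 16 were higher and 5 lower, beside 49.7% of all genes higher. Axon guidance genes (24 tested, median 0.06), axon cytoskeleton and transport genes (26 tested, 0.01), potassium channel genes (30 tested, 0.06), glutamate receptor genes (18 tested, -0.11) and mitochondrially encoded genes (9 tested, -0.02) also had 0 calls in both fits.

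Outside the core, no Gfp-positive cell had Ctgf, while the shell markers Nnat and Slc30a3 were found in most of them. Among the 21 Gfp-positive cells under 200 CPM of Synpr, 17 had Nnat, 16 had Slc30a3, 12 had Pcp4 and 0 had Ctgf. Among the 104 Gfp-negative cells under it, 64 had Nnat, 64 had Slc30a3, 88 had Pcp4 and 25 had Ctgf. The 21 cells are few: 0 of 21 allows a share of up to 14.3% by the floor of 3 counts and 16.1% by the exact interval. After thinning to 10000 counts, Ctgf was in 0 of 21 and 21 of 102 cells, Cplx3 in 0 and 24, and Pcp4 in 10 and 80.

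The plates weighed unequally here, as 15 of the 21 cells came from plate 1. Within plate 1, Nnat was in 12 of 15 Gfp-positive and 21 of 25 Gfp-negative cells, so the pooled difference in Nnat was not seen there. Slc30a3 was in 13 of 15 and 15 of 25 cells of plate 1, and Ctgf in 0 of 15 and 3 of 25. On plates 2 and 3, 10 of 27 and 12 of 52 Synpr-low Gfp-negative cells had Ctgf, beside 0 of 4 and 0 of 2 Gfp-positive cells. Cplx3 was in 1 of 15 and 1 of 25 cells of plate 1, and its pooled difference came from 10 of 27 and 13 of 52 Gfp-negative cells of plates 2 and 3. Only plate 1 had enough Gfp-positive cells for a sum, so Gfp and plate cannot be told apart in a test of Synpr-low cells, and no call is given from one.

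**Figure D3:**
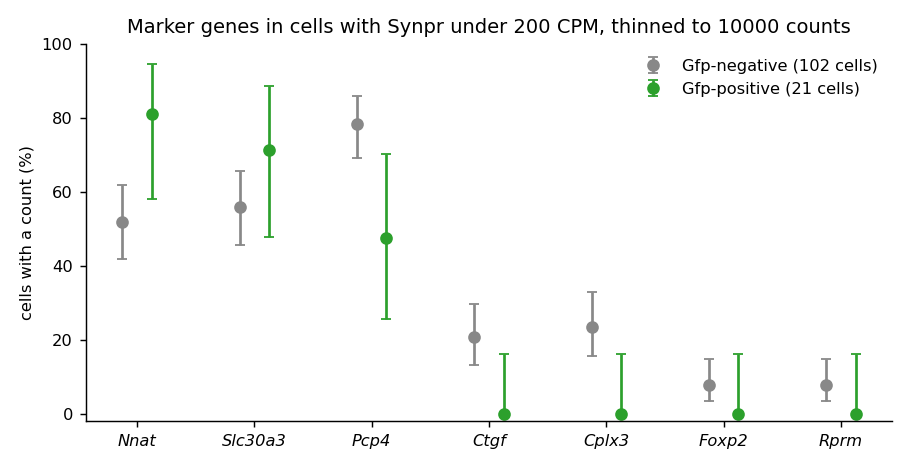
Percent of cells with Synpr under 200 CPM that had a count of each gene after thinning to 10000 counts per cell, in 102 Gfp-negative and 21 Gfp-positive cells, with exact 95% intervals that cover counting error only. Ctgf, Cplx3, Foxp2 and Rprm were in 0 of the 21 Gfp-positive cells, with an interval of 0 to 16.1% that overlaps the Gfp-negative interval of each of them. The intervals of Nnat and Slc30a3 overlap as well, and those of Pcp4 overlap between 69.2 and 70.2%.

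Within the core, no core marker was called. Gfp-positive and Gfp-negative cells at or over 200 CPM of Synpr were summed per plate, and the 3 Gfp-positive cells of plate 3 were too few for a sum of at least 5 cells, which left 2 against 3 sums. Of 7770 genes tested, 0 were called (0%) by edgeR and 0 by DESeq2, with 304 under an unadjusted p of 0.05. Gnb4 was at 0.04 ± 0.15, Nr4a2 at 0.13 ± 0.12, Lxn at -0.05 ± 0.14 and Rgs12 at -0.09 ± 0.16 on the log2 scale (SE). The 9 core markers had a median of -0.05, with 4 higher and 5 lower. Cpne4 had the lowest value, at -0.76 ± 0.21 (adjusted p = 0.999, edgeR), and stood at 288 and 556 CPM on plate 1, 249 and 371 CPM on plate 2, and 465 and 463 CPM on plate 3 in Gfp-positive and Gfp-negative cells. Synpr itself was at -0.19 ± 0.13 among cells already chosen for it.

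A direct test of whether the Gfp difference differed between cells over and under 200 CPM of Synpr called 0 of 9564 genes (0%, 618 at an unadjusted p under 0.05, edgeR). It had 9 sums, since the Synpr-low Gfp-positive cells of plates 2 and 3 and the Synpr-high ones of plate 3 were too few. With all 12 sums kept it again called 0 genes, with 349 of 7388 under an unadjusted p of 0.05. Values of the Synpr classes are therefore given side by side only.

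Immediate early genes had higher fitted levels in Gfp-positive cells, within the core and over all cells, and their direction differed between plates. These genes are transcribed within minutes of neuronal activity or other stimulation, and many encode transcription factors. Of the 20 on the list 16 were tested within Synpr-high cells, and 15 of these were higher in Gfp-positive cells, with a median log2 change of 1.08 beside -0.0087 over all genes tested. Without the block 0 of them were called. With the plate as a block, which left 1 residual degree of freedom, 5 genes were called: Junb, Fos, Egr4 and Egr1 as higher (0.0515% of genes tested) and Penk as lower (0.0129%).

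The promoters of 3 of the 4 genes called as higher, Fos, Junb and Egr4, are printed, and that of Egr1 is not shown. They are given because immediate early genes are classically driven through cAMP response elements, whose core is TGACG. The capitals mark TGACG or its reverse complement CGTCA. The sequences are RefSeq promoters of GRCm38.p6, from 250 bases before to 50 bases after the transcription start, matched by symbol. Fos lies at chr12:85473640-85473939 on the plus strand, Junb at chr8:84978699-84978998 on the minus strand and Egr4 at chr6:85513540-85513839 on the minus strand.
Fos: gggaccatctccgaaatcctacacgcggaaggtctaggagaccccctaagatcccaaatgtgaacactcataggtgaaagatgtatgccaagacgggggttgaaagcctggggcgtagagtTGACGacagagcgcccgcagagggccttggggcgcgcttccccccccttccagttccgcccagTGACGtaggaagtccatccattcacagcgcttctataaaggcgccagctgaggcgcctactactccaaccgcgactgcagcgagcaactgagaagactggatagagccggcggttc
Junb: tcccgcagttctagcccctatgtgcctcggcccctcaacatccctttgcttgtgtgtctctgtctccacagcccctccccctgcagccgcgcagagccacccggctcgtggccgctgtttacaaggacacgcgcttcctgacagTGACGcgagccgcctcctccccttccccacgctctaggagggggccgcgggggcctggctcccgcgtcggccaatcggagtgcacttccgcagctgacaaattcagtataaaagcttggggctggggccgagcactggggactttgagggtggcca
Egr4: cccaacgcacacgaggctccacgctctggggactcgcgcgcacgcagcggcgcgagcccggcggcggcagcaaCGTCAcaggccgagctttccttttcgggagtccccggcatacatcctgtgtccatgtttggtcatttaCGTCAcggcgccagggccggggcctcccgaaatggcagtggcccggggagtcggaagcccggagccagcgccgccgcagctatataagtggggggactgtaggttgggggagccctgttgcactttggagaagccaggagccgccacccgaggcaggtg

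Fos and Egr4 each had 2 matches and Junb had 1. Of 16 genes of the list with a promoter in the table, 13 had a match, and of all 32817 promoters 20.8% had one. A match describes the letters only and shows no binding.

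Fos, the partner of Jun proteins in the AP-1 factor, was at 0 and 147 CPM on plate 1 and at 83.9 and 256 CPM on plate 2 in Gfp-negative and Gfp-positive Synpr-high cells. On plate 3 it was at 172 and 83.9 CPM, in 15 of 26 Gfp-negative and 1 of 3 Gfp-positive cells. The direction on plate 3 was thus opposite to that on the others. Its blocked log2 change over plates 1 and 2 was 2.31 ± 0.40 (SE, adjusted p = 2.35e-05, edgeR, up to 1 over alternatives).

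Junb, another AP-1 subunit, was at 43.8 and 333 CPM on plate 1, 324 and 737 CPM on plate 2, and 321 and 284 CPM on plate 3 (1.69 ± 0.23, blocked adjusted p = 3.23e-09, edgeR, up to 1 over alternatives). Egr1, a zinc finger factor, was at 118 and 323, 214 and 453, and 199 and 181 CPM (1.24 ± 0.26, blocked adjusted p = 0.00257, up to 1 over alternatives). Egr4, of the same family, was at 26.3 and 70.4, 102 and 481, and 103 and 64.5 CPM (2.04 ± 0.38, blocked adjusted p = 0.000152, up to 1 over alternatives). In all 4 genes the Gfp-positive level exceeded the Gfp-negative level on plates 1 and 2 and lay below it on plate 3. The Gfp-negative cells of plate 1, 11 in number, were lowest of the negative sums in each gene.

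Members that were not called are given as values. Arc, which acts at synapses, was at 61.3 and 131, 118 and 324, and 121 and 71.0 CPM, and the phosphatase Dusp1 at 48.1 and 118, 117 and 326, and 119 and 77.4 CPM (blocked adjusted p = 0.0902 and 0.0645, edgeR). Npas4, an activity-dependent factor, was at 13.1 and 43.2, 37.5 and 195, and 43.6 and 0 CPM. Nr4a1, Fosl2, Btg2, Ier2 and Egr2 had log2 changes of 1.24, 0.83, 1.70, 0.79 and 1.81 without the block. Jun and Homer1 lay at 0.08 ± 0.41 and -0.10 ± 0.29, Nr4a2 at 0.13 ± 0.12 and Bdnf at 0.35 ± 0.13.

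The pattern over plates was the same for the list: 17, 19 and 3 of its 20 genes were higher in Gfp-positive Synpr-high cells on plates 1, 2 and 3. No share of all genes is given beside these counts. On plate 3 the Gfp-positive sum of 3 cells had 7 of the 20 genes at 0, against 1 in the Gfp-negative sum. Summed over the list, these Gfp-positive and Gfp-negative cells had 5491 and 3768 CPM on plate 1, 7412 and 4969 CPM on plate 2, and a nearly equal 4407 and 4674 CPM on plate 3. When the 3 cells of plate 3 were kept as a sum, an alternative chosen after seeing the data, 0 genes were called with the block (226 of 6686 at an unadjusted p under 0.05), and Fos, Junb, Egr1 and Egr4 were at 1.24, 1.09, 0.82 and 1.14 (adjusted p = 0.998 for each, edgeR). Single cells held much of some sums: in Gfp-positive cells of plate 2, 30.3% of Fos counts and 17.5% of Junb counts came from 1 cell. Over all kept cells without the block, 13 of 15 tested members were higher, with a median of 0.81 and 0 calls. With the block 14 of the 15 were higher and 2 were called, Bdnf and Nr4a2 (edgeR), and Nr4a2 is on the core list as well. Of the 20 genes, 18, 20 and 5 were higher on plates 1, 2 and 3. Among Synpr-low cells, with 15, 4 and 2 Gfp-positive cells on these plates, 16, 6 and 4 of 20 were higher. Plates 1 and 2 thus differed from plate 3 over all cells, where 14 of the genes were lower. The Gfp-positive sum of plate 3 held only 5 cells there and had 5 of the 20 genes at 0, against 1 in the Gfp-negative sum. The part of this small sum in the direction on plate 3 was not tested. Summed over the list, Gfp-positive and Gfp-negative cells had 4819 and 2491 CPM on plate 1, 6401 and 3355 CPM on plate 2, and 2979 and 2714 CPM on plate 3, a sum to which Bdnf and Nr4a2 gave the most.

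Penk, the precursor of enkephalin peptides, was at 27.2 and 420 CPM on plate 1, 37.6 and 33.0 CPM on plate 2, and 0 and 54.7 CPM on plate 3 in Gfp-positive and Gfp-negative Synpr-high cells. The high value came from the 11 Gfp-negative cells of plate 1, where 54.2% of its counts were in 1 cell, and the direction on plate 2 was the opposite. Its blocked log2 change was -2.18 ± 0.48 (SE, adjusted p = 0.00864, edgeR, up to 1 over alternatives).

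**Figure D4:**
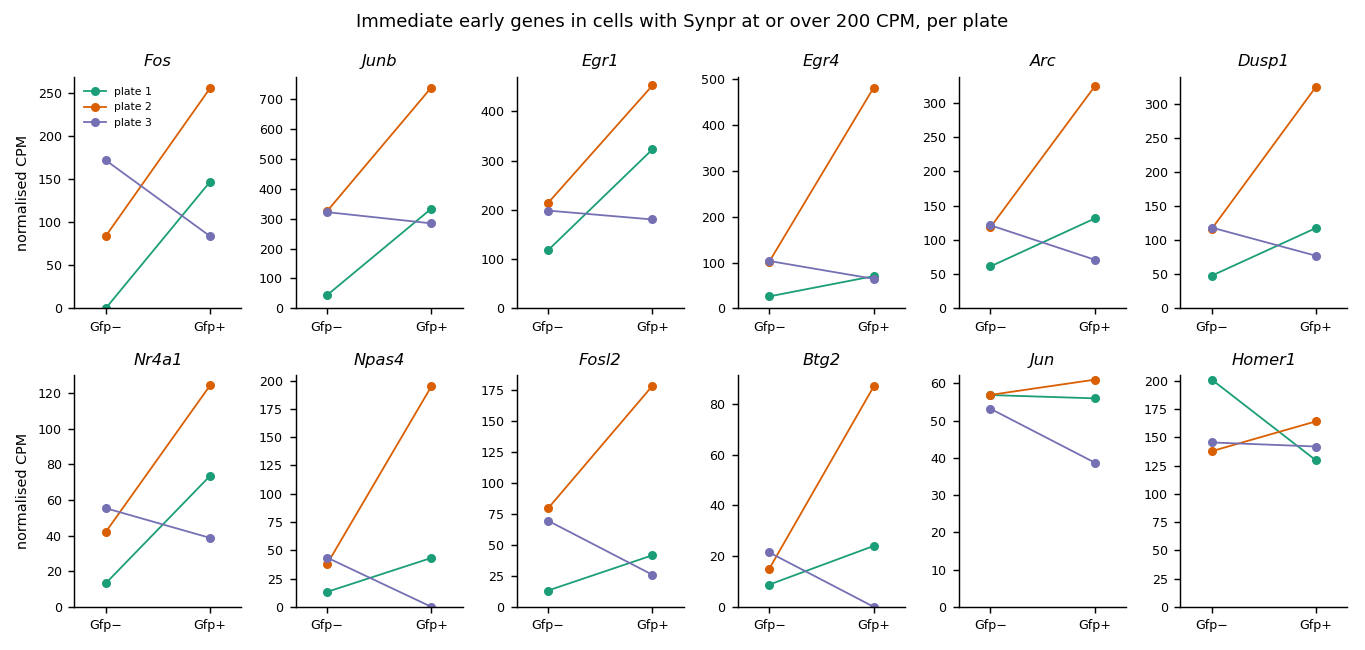
Normalised CPM (vertical axes, linear, from 0) of 12 immediate early genes in summed Gfp-negative and Gfp-positive cells with Synpr at or over 200 CPM, 1 line per plate, where the Gfp-positive sum of plate 3 holds 3 cells. Fos, Junb, Egr1, Egr4, Arc and Dusp1 were higher in Gfp-positive cells on plates 1 and 2 and lower on plate 3, while Jun and Homer1 had no common direction on plates 1 and 2.

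The tracer comparison was then set beside the bead-labeled cells of the 3 other mice, which share no sample with it. RSC is a midline cortical area like the cingulate cortex, while LEC lies in the temporal lobe. RSC-labeled cells were Synpr-high in 52 of 64, 56 of 70 and 105 of 113 cells of mice 1, 2 and 3 (81.3, 80.0 and 92.9%). LEC-labeled cells were Synpr-high in 18 of 80, 11 of 76 and 16 of 130 cells (22.5, 14.5 and 12.3%). The Synpr-high share of Gfp-positive cells, 65.1, 81.8 and 60.0% on plates 1, 2 and 3, lay between those of LEC-labeled and RSC-labeled cells on plates 1 and 3 and among those of RSC-labeled cells on plate 2. That of Gfp-negative cells, 11 of 36, 27 of 54 and 26 of 78 cells, lay between the labels on all plates.

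In RSC-labeled against LEC-labeled cells, summed per mouse, 255 of 13242 genes were higher (1.93%) and 252 lower (1.9%) by edgeR. Label and plate could not be told apart in these sums, since only 1 of 7 plates held cells of both labels. Leaving out 1 mouse moved the 507 calls to 344, 46 and 21 without mice 1, 2 and 3. Of the 20 genes with the largest changes 18 were measured in the tracer animal, and 0 of these passed its filter on low counts. Of all 507, 392 were tested there.

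These 392 genes tended to the same side in the tracer animal. Of 214 that were higher in RSC-labeled cells, 174 had a higher fitted level in Gfp-positive cells, with a median log2 change of 0.34. Of 178 that were higher in LEC-labeled cells, 132 had a lower one, with a median of -0.28. Of all 7929 genes, 49.7% were higher in Gfp-positive cells, which is another measure than a same-sign share. A same-sign share over all genes is not given here. Together 306 of the 392 genes (78.1%) had the same sign. Genes are not independent replicates, and this share has no test. It was 75.1, 75.8 and 78.4% without plates 1, 2 and 3, and 73.6% in cells matched on total count.

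Restricted to Synpr-high cells the same count was 167 of 369 (45.3%), with medians of -0.05 for RSC-higher and 0.05 for LEC-higher genes. Among Synpr-low cells it was 205 of 429 (47.8%), where only plate 1 gave a Gfp-positive sum, so that Gfp and plate cannot be told apart there. Within Synpr-high cells of the projection mice, RSC-labeled against LEC-labeled cells had 0 calls in 11330 genes (0%, 472 at an unadjusted p under 0.05, edgeR), in sums of 11 to 105 cells.

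Named genes showed the same relation. Gnb4 was at 474, 394 and 277 CPM in LEC-labeled and 1259, 1211 and 1267 CPM in RSC-labeled cells of mice 1, 2 and 3 (log2 change 1.71 ± 0.17, SE, adjusted p = 0.00284, edgeR). Nrip3 was at 149, 241 and 186 CPM in LEC-labeled and 52.0, 53.2 and 19.1 CPM in RSC-labeled cells (-2.23 ± 0.36, adjusted p = 0.0136). For both genes the labels did not overlap, and the direction was that of the Gfp comparison. Col11a1, Odz2, Synpr and Nr4a2 were likewise called as higher in RSC-labeled cells and Mpped1, Nptx1 and Serpini1 as lower.

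Ctgf, Cplx3 and Pcp4 were not called between the bead labels. Ctgf and Cplx3 were at 2.57 ± 1.19 and 2.72 ± 1.27 on the log2 scale in RSC-labeled against LEC-labeled cells (adjusted p = 0.343 and 0.348, edgeR), the sign opposite to that in the tracer animal. Ctgf was low in both, at 0 to 2.46 CPM in LEC-labeled and 2.69 to 8.64 CPM in RSC-labeled cells. Pcp4 was at -1.98 ± 0.54 (adjusted p = 0.0888), and Bdnf at 0.46 ± 0.18 (adjusted p = 0.25).

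**Figure D5:**
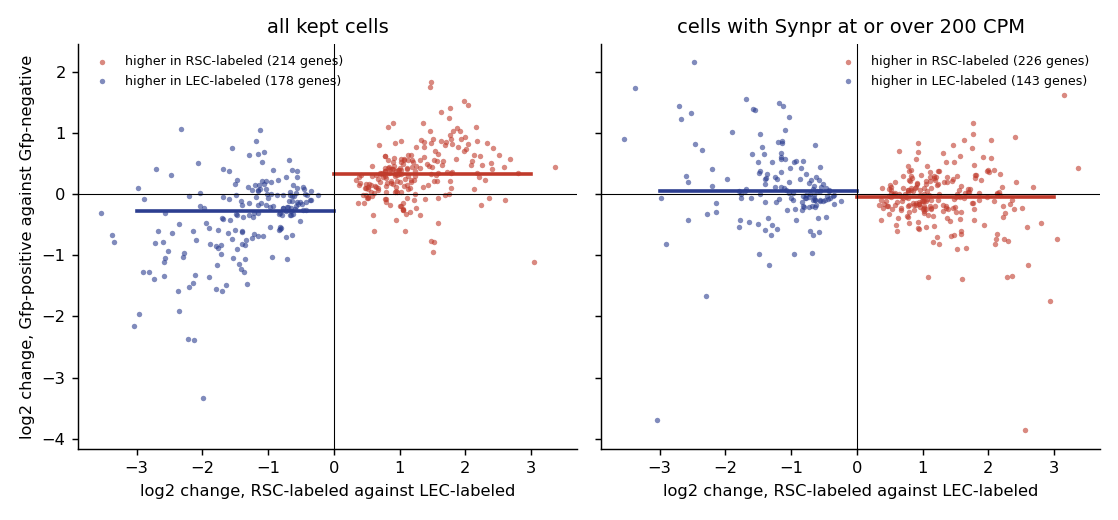
Log2 change of genes called in RSC-labeled against LEC-labeled cells (horizontal) and in Gfp-positive against Gfp-negative cells (vertical), in all kept cells on the left (214 and 178 genes) and in cells with Synpr at or over 200 CPM on the right (226 and 143 genes). Thick lines give the medians, 0.34 and -0.28 on the left and -0.05 and 0.05 on the right; the genes share plates, mice and cells and are not independent.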

How the data were processed

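Hand-picked claustrum cells of 4 mice in 13 plates were profiled by single-cell RNA sequencing. The authors deposited whole-number counts per gene and cell that were not normalized, with ERCC spike-ins. Per the Methods, reads carried cell barcodes and UMIs, and STAR aligned them, whose version is not given in the sources used here. The submitters' processing notes name NCBIM37 and Seurat. Whether UMIs were collapsed is not given, so the counts were taken as reads, and intervals and floors cover counting error only, and strand use is not given.

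Cell names in the table header were matched in order to the deposited metadata. Kept cells had a count of both Snap25 and Slc17a7, 238 of 256 in the tracer mouse. The Gfp and ERCC rows stayed out of totals and tests. Counts were summed per plate and Gfp class (268596 to 3715352 counts per sum) or per mouse and bead label, and tested by edgeR 4.0.16 (filterByExpr, TMM, quasi-likelihood, Benjamini-Hochberg at 0.05) in R 4.3.3. Sums within Synpr classes needed 5 cells. CPM values are scaled by TMM. DESeq2 1.42.0, other filters, depth settings and limits were alternatives. The members and gene lists were chosen with earlier results of these data known. Named genes are list members, in situ probes, the 10 largest called rises and falls shared by all plates or mice (where fewer passed, all of them and those of lowest unadjusted p up to 5 each way), and up to 4 genes of each other list. Bounds by plate and counts of immediate early genes in Synpr-low cells were added after seeing the data. Further immediate early genes, Penk and the genes called only with the block were named after their values were seen. Doublets were not called, since cells were picked singly. Scripts were tested on simulated data. Pairing comes from the shared plate. The deviations of same-plate sums from their class means correlated at 0.0810 to 0.0874. Those of different plates correlated at -0.0678 to -0.0171. These negative values are no separate evidence, since centring each class on its own mean forces them once same-plate values are positive. RefSeq promoters are from another build than the counts and were matched by symbol.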

Additional observations from a re-analysis of the deposited data

Results flagged for a closer look

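Of the 16 cells that had Snap25 but no count of Slc17a7 and were left out of all comparisons, 6 (37.5%) had Gfp. They are listed here because Gfp appeared in cells that no comparison used. The 18.8% that a count of 0 would allow is no expected share for them, and no test was run. The exact 95% interval of 15.2 to 64.6% holds the 29.4% of kept cells, so a difference from the kept cells was not shown. These 6 cells held 7 Gfp counts, 3 of the cells came from plate 1 and 3 from plate 2, and their totals ran from 9446 to 20187 counts. Of the 16 cells 7 were at or over 200 CPM of Synpr, and 2 of these 7 had Gfp. The 16 cells had a median total of 16183.5 counts and the kept cells one of 26023, and the part of depth in this was not tested.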

How the results depend on the processing

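The tests rest on 3 plates of 1 animal, and plate 3 gave 5 Gfp-positive cells. In all kept cells, the 5 calls became 17 with DESeq2, 45 without a filter on low counts, 14 with the replicate block, 12 after thinning, 2 in cells matched on total count, 8 with Gfp of at least 2 counts and 9 with at least 2 counts of Snap25 and Slc17a7. They ranged from 0 to 2 when 1 plate was left out, and were 5 with RLE size factors and 7 with the Gfp row kept. The same 5 genes were called in each of the settings with 8 or more calls. Within Synpr-high cells, the 0 calls became 5 with the replicate block and ranged from 0 to 12 when 1 plate was left out (12 without plate 1 and 1 without plate 2, both of which left a lone Gfp-positive sum that was assumed to vary like the others). They stayed at 0 with DESeq2, thinning, Gfp of at least 2 counts, Synpr limits of 100 and 400 CPM and all sums kept. The RSC against LEC calls became 1121 with DESeq2 and ranged from 21 to 344 without 1 mouse. The share of same-sign genes became 73.6% after matching and 45.3% in Synpr-high cells. The difference in Gfp-positive share ran from 16.9 to 30.7 points when 1 plate was left out. It was smaller with Gfp thinned as well, where 34.8% of Synpr-high and 15.4% of Synpr-low cells had Gfp over the 3 plates. Unthinned, these shares were 43.4 and 16.8%. The thinned shares were 61.5 and 33.3% on plate 1, 29.5 and 12.9% on plate 2, and 6.90 and 3.77% on plate 3. The causes of these shifts were not tested. Of log2 changes of single genes, 11 reversed in all cells, with 272 kept in direction and call, 28 newly called and 16 no longer called. They were those of Slc17a6 (-0.014 to 0.90 without 1 plate), Col6a1 (-0.37 to 0.14 without 1 plate, 0.20 thinned, 0.21 matched), Ldb2 (-0.40 to 0.15 without 1 plate, 0.15 matched, 0.062 with Gfp of at least 2 counts), Cdh9 (-0.011 matched) and Slc17a7 (-0.0093 without a filter, -0.065 thinned, -0.11 to 0.14 without 1 plate). In Synpr-high cells 13 reversed, 193 kept direction and call and 12 were newly called. Those that reversed without 1 plate were Fosl2 (-0.18 to 1.26), Egr4 (-0.038 to 2.22), Ier2 (-0.19 to 1.26), Homer1 (-0.37 to 0.20), Gnb4 (-0.089 to 0.24) and Slc17a7 (-0.016 to 0.43). Others were Jun (-0.091 at 100 CPM, -0.051 with all sums kept, -0.10 with the block added), Homer1 (0.048 with Gfp of at least 2 counts), Gnb4 (-0.034 with the replicate block) and Slc17a7 (-0.15 thinned).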
